A study of Homo sapiens with 3 samples.

Results

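Solute carriers are membrane proteins that move small molecules and ions down or against their gradients, sugars, amino acids, metal ions, bicarbonate, vitamins and choline among them. In humans they are named as numbered families, each an SLC number, an A and a member number. Carriers of the plasma membrane set what a cell takes up, and carriers of the Golgi, endoplasmic reticulum and lysosome supply or drain these compartments. In cancer cells they are best known for the uptake of fuel and building blocks and for the control of pH and cell volume.

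The solute carriers described here were chosen by symbol and by detection. Their probes carry a platform gene symbol of the SLC-number-A-number form, without the mitochondrial SLC25 family and without SLC2A1, SLC2A3, SLC16A1, SLC16A3, SLC7A5, SLC7A11 and SLC3A2, and had a detection p-value under 0.01 on at least 1 of 3 arrays. This left 125 genes with 162 probes out of 277 genes with 416 probes that matched by symbol, and out of 11062 named genes detected on any array. The other 152 genes were not detected. Just inside the threshold, the lowest detection p-values were 0.00779 for SLC29A4 and 0.00649 for SLC43A1 and for SLC5A12. Just outside it they were 0.0117 for SLC22A17 and 0.0130 for SLC24A2 and for SLC4A8. Where in the cell a carrier sits was not measured.

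A375 cells are a long-used line from a human melanoma. Total RNA of 3 states was measured on Illumina arrays, with 1 array for each: reattached cells, which were suspended cells given fresh medium on a culture dish and 1 day to attach, suspended cells, which were adherent cells plated onto sterile plastic dishes, and adherent cells, the starting culture. All were grown in DMEM with 10% serum and antibiotics. The time in suspension and the number of cultures behind each RNA are not stated in the labels. With 1 array per state, no difference has a replicate check, so neither a test nor an error is attached to any value, and every value describes these 3 arrays. In bulk RNA, fewer cells of a kind and less RNA per cell cannot be told apart.

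Detected probes numbered 16826 on the reattached, 17466 on the suspended and 17761 on the adherent array, of 47323. Of 10 melanoma and melanocyte markers, 5 were detected in every state (SOX10, MITF, PRAME, MC1R and GPNMB), and MLANA, PMEL, TYR and S100B were not detected. DCT had no named probe. Sums of levels are given here on the linear scale, with the offset of 16 used in normalization subtracted. The summed level of the 5 was 6056 in reattached, 7084 in suspended and 5179 in adherent cells. Of 5 epithelial markers KRT14 and KRT8 were detected, summing to 72.8 in reattached, 27.9 in suspended and 109 in adherent cells, and neither was detected in suspension. Fibroblast markers (3 of 5 detected on any array) summed to 188, 164 and 203 in the same order of states, leukocyte markers (2 of 5) to 144, 123 and 138, and 1 of 5 endothelial markers, PECAM1, was detected in adherent cells alone. The part of these levels in any carrier's value was not tested.

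Levels are normalized log2 intensities, and a difference is one array's level minus another's. Since a probe's brightness depends on its sequence, levels are compared between states and not between genes. A carrier counted as higher or lower at a difference of 1.5-fold or more. Where a carrier was not detected on 1 of the 2 arrays compared, its level there was raised to the dimmest detected probe of that array if it lay below it, and the fold is then written as at least so much. Detection on 1 array alone also chose some members, which then had to differ: of the 125, 114 were detected on all 3 arrays, 6 on the suspended array alone and 1 on the reattached array alone.

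Promoter sequences are shown for the 5 carriers with 2 detected probes that both were higher in suspended than in adherent cells by 0.3 or more on the log2 scale, because in these carriers separate probes gave the same direction. The sequences are from RefSeq (GRCh38.p14), 250 bases before to 50 after the start of the gene, written 5′ to 3′ on the strand of the gene. Capitals mark a match on either strand to TGCNCNC, a looser pattern than the core of the metal response element, TGCRCNC (R is A or G).
SLC5A3, chr21:34073328-34073627, plus strand: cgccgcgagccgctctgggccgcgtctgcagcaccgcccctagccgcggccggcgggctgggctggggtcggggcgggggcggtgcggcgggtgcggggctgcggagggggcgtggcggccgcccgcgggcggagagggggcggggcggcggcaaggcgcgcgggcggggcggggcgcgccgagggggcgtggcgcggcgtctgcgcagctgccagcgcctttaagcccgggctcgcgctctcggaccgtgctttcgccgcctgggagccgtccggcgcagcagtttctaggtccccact
SLC4A7, chr3:27484335-27484634, minus strand: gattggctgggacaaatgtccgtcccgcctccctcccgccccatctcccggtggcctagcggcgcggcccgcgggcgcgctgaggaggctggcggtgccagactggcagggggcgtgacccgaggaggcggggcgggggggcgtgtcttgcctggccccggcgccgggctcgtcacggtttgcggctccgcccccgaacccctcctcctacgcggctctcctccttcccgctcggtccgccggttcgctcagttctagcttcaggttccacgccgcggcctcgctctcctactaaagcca
SLC12A2, chr5:128083516-128083815, plus strand: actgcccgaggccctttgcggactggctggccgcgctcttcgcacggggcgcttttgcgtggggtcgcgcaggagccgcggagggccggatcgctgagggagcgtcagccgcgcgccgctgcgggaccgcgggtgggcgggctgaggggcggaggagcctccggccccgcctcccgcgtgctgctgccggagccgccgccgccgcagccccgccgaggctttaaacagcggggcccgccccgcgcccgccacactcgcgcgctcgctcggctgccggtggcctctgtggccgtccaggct
SLC39A6, chr18:36129291-36129590, minus strand: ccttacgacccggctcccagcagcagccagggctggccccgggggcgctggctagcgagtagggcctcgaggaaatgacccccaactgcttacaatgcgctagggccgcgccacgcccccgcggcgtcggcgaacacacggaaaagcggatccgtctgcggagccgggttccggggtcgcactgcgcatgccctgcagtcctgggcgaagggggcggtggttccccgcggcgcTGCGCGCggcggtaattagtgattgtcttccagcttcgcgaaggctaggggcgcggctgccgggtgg
SLC44A1, chr9:105244401-105244700, plus strand: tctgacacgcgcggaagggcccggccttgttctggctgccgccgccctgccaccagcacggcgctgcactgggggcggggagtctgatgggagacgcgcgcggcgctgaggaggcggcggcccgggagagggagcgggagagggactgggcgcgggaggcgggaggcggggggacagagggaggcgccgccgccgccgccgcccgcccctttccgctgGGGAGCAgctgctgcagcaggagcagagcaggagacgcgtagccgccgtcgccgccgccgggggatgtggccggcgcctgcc

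The pattern TGCNCNC stood once each in the promoters of SLC39A6 and SLC44A1. The SLC44A1 match, TGCTCCC on the opposite strand, has T where the core of the metal response element has A or G. TGCNCNC is a common run of letters, found in 55.2% of 27305 RefSeq promoters of this length and in 57.5% of the 106 carriers that had one. The stricter core was not counted. The E-box CACGTG stood in none of the 5, against 10.4% of the 106 carriers and 7.43% of all promoters. The amino acid response element TGATGNAA (4.72% of the carriers and 3.67% of all promoters) and the ER stress response element (0 of the 106 and 0.0806%) also stood in none. Both strands were searched for each, and a match describes letters and not a bound site. SLC5A3 and MRPS6, a gene for a mitochondrial ribosomal protein, have the same start in this annotation and the same promoter sequence, so reads or probes near that end cannot separate them.

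Suspended cells, set against adherent ones, show carrier levels without anchorage. The carriers lay slightly higher in suspension: their median log2 difference was 0.10 over 124 carriers, with 78 above 0 and 46 below, against a median of 0.00 over all 10991 named genes compared. Over the 114 carriers detected on all 3 arrays, the median was also 0.10, with 70 above 0. At 1.5-fold or more, 5 carriers were higher (4.03%, against 2.71% of all genes) and 0 lower (against 2.23% of all genes). At 2-fold, 1 was higher (0.806%, against 0.5%) and 0 lower (against 0.655%). With the authors' deposited intensities, with no background correction or with a larger offset, the count of 5 was 1. The shares of all genes were then 1.36%, 1.42% and 1.44%. The shares at 1.5-fold are near those of all genes, and the carriers' differences were mostly small, from -0.49 to 1.08.

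**Figure D1:**
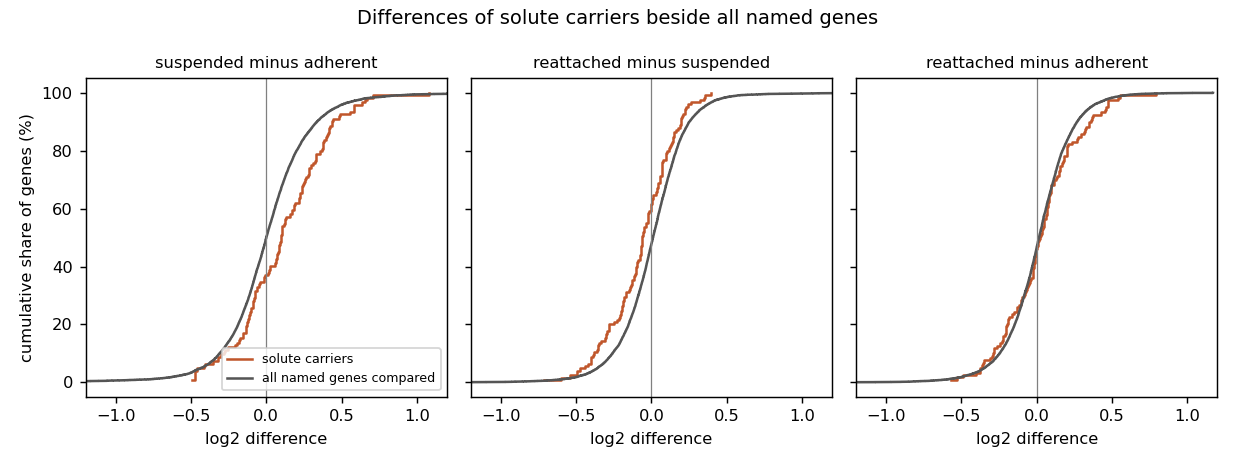
Cumulative share of genes (%) by log2 difference in the 3 comparisons, for solute carriers and for all named genes compared, from 1 array per state. The carriers' curve lies to the right of that of all genes in suspended minus adherent cells (median 0.10 against 0.00), to the left in reattached minus suspended cells (-0.06 against 0.01) and on it in reattached minus adherent cells (0.02 against 0.02).

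The farthest of all carriers was SLC5A3, which carries myo-inositol with sodium into the cell, an organic osmolyte. Its level was 9.36 in reattached, 9.90 in suspended and 8.82 in adherent cells, so that suspension stood 2.12-fold above adherence. The second SLC5A3 probe gave 5.21, 5.72 and 5.22 in the same order of states and was not detected after reattachment, a difference of 0.50 between suspended and adherent cells. MRPS6, which shares its start, stood at 12.92 in reattached, 13.17 in suspended and 12.65 in adherent cells, also highest in suspension (0.52). Another myo-inositol carrier, SLC2A13, which uses protons, was detected in suspension alone. It stood at 5.27 in reattached, 5.79 in suspended and 5.10 in adherent cells, at least 1.58-fold higher in suspended than in adherent cells, a level near the detection limit throughout.

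Of the 9 sugar and polyol carriers compared, 6 lay above 0 between suspended and adherent cells and 3 below, with a median of 0.22 (0.0774 with no detection filter). SLC2A14, a glucose transporter nearly identical in sequence to SLC2A3, had levels of 6.71 in reattached, 6.64 in suspended and 6.16 in adherent cells (0.49 for suspended minus adherent). The SLC2A3 probe differed by 0.13, and how far the SLC2A14 probe reads SLC2A3 cannot be told from these files. SLC2A6, a glucose transporter family member of lysosomes, was lower in suspended cells, at 7.57 in reattached, 7.21 in suspended and 7.49 in adherent cells (-0.28). The class held members on both sides of 0, with the inositol carriers at its upper end.

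Ion carriers that govern pH and volume formed a class of 12, with a median of 0.24 between suspended and adherent cells (0.0444 with no detection filter and 0.381 with no floor), 8 above 0 and 4 below. Among the 8, SLC4A3 (0.10) was not detected in adherent cells, so its value is a bound. Its 3 sodium-proton exchangers all lay above 0. SLC9A4 stood at 5.40 in reattached, 5.80 in suspended and 5.22 in adherent cells, and SLC9A5 at 6.37, 6.16 and 5.58 in the same order of states, each a difference of 0.58, just under 1.5-fold. Their adherent levels were near the detection limit, with detection p-values of 0.0065 and 0.0052. The third, SLC9A8 of the Golgi, differed by 0.38. SLC4A7, which brings in bicarbonate with sodium, stood at 10.00 in reattached, 10.35 in suspended and 9.91 in adherent cells (0.44), and its second probe at 8.17, 8.64 and 7.63, a larger difference of 1.01. SLC12A2, the sodium, potassium and chloride cotransporter that swells cells, stood at 8.94, 9.54 and 9.13 (0.41), with a second probe at 8.79, 8.93 and 8.34 (0.59). Both probes of each gene were highest in suspension.

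Other members of this ion class were lower in suspension. SLC12A8, a distant member of the cation-chloride family, stood at 5.60 in reattached, 5.70 in suspended and 6.17 in adherent cells (-0.48). SLC4A11, a bicarbonate-family relative known for its loss in a corneal dystrophy, stood at 6.58, 6.44 and 6.77 (-0.32). The 2 genes had their highest level in adherent cells.

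**Figure D2:**
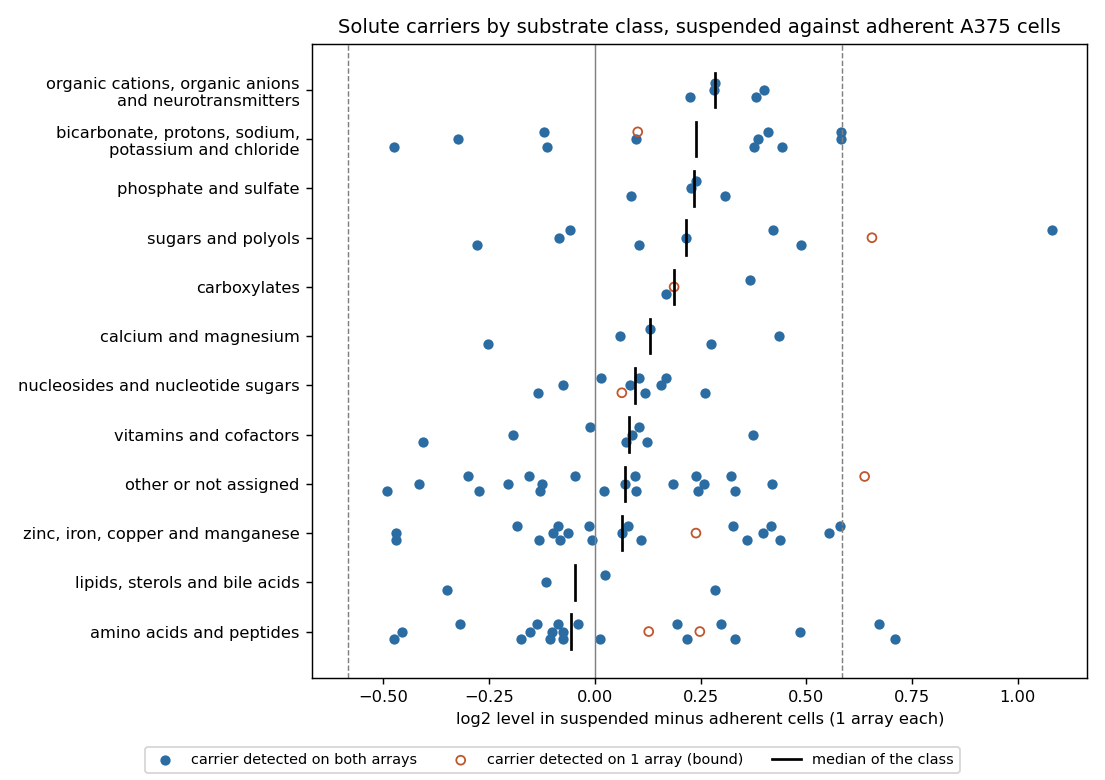
Log2 level in suspended minus adherent cells (x axis) for 124 solute carriers by substrate class, 1 array each. Filled points were detected on both arrays, open points on 1 of them and are bounds, black bars are class medians and dashed lines mark 1.5-fold. The 5 points beyond the right dashed line are SLC5A3, SLC38A12, SLC7A2, SLC2A13 and SLC22A23, and none lies beyond the left one.

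Amino acid and peptide carriers were split. Of 22 compared between suspended and adherent cells, 10 lay above 0 and 12 below, with a median of -0.06. The 10 include SLC38A7 and SLC43A1, which were not detected in adherent cells and whose values are bounds. SLC38A12, placed in the class by its family symbol and also known as TMEM104, stood at 5.76 in reattached, 6.12 in suspended and 5.41 in adherent cells, 1.64-fold higher in suspended than in adherent cells. Its adherent level was near the detection limit, with a detection p-value of 0.0052. SLC7A2, a transporter of arginine, lysine and ornithine, stood at 7.29, 7.60 and 6.93 in the same order of states, 1.59-fold higher. SLC1A4, which exchanges alanine, serine and cysteine, stood at 7.09, 7.21 and 6.73 (0.49). These 3 carriers were highest in suspension and lowest in adherence.

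In the same class, SLC1A3, a glutamate transporter, stood at 5.80 in reattached, 5.82 in suspended and 6.29 in adherent cells (-0.48 for suspended minus adherent). SLC6A9, a glycine transporter, stood at 6.69, 6.54 and 7.0 (-0.46). SLC7A1, the widely expressed arginine transporter, differed by -0.32, opposite in sign to its relative SLC7A2. The SLC38 family, which holds sodium-coupled neutral amino acid carriers, had 5 of 7 members above 0 and a median of 0.22. SLC38A10 (0.33, with a second probe at 0.09), among the 5, was placed with the carriers of other or unassigned substrates and not in this class. SLC38A2 differed by -0.11. SLC38A1 differed by 0.01 with the probe used and by -0.29 with its other probe, so its direction depends on the probe. Among the 5, SLC38A7 (0.25) was not detected in adherent cells, so its value is a bound. For SLC7A6, another partner of the SLC3A2 chain, the probe used differed by -0.14 and the other by 0.35, so its direction depends on the probe.

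Metal carriers numbered 21, with a median of 0.06 between suspended and adherent cells, 11 above 0 and 10 below. They divide into the SLC39 importers, which bring zinc into the cytosol (7 of 11 above 0, median 0.24), the SLC30 exporters, which move it out or into vesicles (4 of 6 above 0, median 0.09), and iron, copper and heme carriers. SLC39A13, among the 7, was detected in suspension alone and so chosen through the state where it was high. Its value, a bound, is the SLC39 median. SLC39A6, a zinc importer of the plasma membrane, stood at 9.73 in reattached, 10.13 in suspended and 9.55 in adherent cells (0.58), with a second probe at 0.51. SLC39A9, another zinc importer, stood at 6.49, 6.62 and 6.06 (0.55). The 4 iron, copper and heme carriers compared, SLC11A2 (-0.08), SLC31A1 (-0.18), SLC31A2 (-0.09) and SLC48A1 (-0.47), all lay below 0. So did 5480 of all 10991 named genes compared.

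SLC48A1, which carries heme out of lysosomes, stood at 7.67 in reattached, 7.42 in suspended and 7.89 in adherent cells (-0.47), and its second probe differed by -0.23. SLC39A11, an importer of the zinc family placed in the Golgi, stood at 7.94, 7.73 and 8.20 (-0.47). SLC39A7, which releases zinc from the endoplasmic reticulum, stood at 5.88, 6.60 and 6.24, highest in suspension (0.36), while its second probe was detected in adherent cells alone. The metal carriers ranged from -0.47 to 0.58.

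Choline and organic ion carriers all lay above 0 between suspended and adherent cells, 5 of 5, with a median of 0.28, out of 39 on the platform. Of all 124 carriers compared, 78 lay above 0, and of all 10991 named genes, 5495. SLC22A5 (-0.41), of the same family as SLC22A4 in this class, was placed with the vitamin and cofactor carriers. The SLC22 family had 2 of 3 compared members above 0. SLC44A1, the main choline carrier of this family, stood at 11.63 in reattached, 11.82 in suspended and 11.42 in adherent cells (0.40 with each of its 2 probes). SLC44A4 was the lowest of the class (0.23), at 12.51 in reattached, 12.58 in suspended and 12.35 in adherent cells. Its second probe was detected in adherent cells alone. Leaving out the detection filter turned the median of this class to -0.01.

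All 4 phosphate and sulfate carriers lay above 0 between suspended and adherent cells, as did 78 of all 124 carriers compared. Their median was 0.23, from SLC20A1, a phosphate importer (0.08), to SLC26A2, a sulfate carrier (0.31). Calcium and magnesium carriers had 4 of 5 above 0 and a median of 0.13, with the potassium-dependent sodium-calcium exchangers SLC24A3 (0.43) and SLC24A1 (-0.25) at the ends. SLC24A3 stood at 5.34 in reattached, 5.79 in suspended and 5.35 in adherent cells. Its adherent level was near the detection limit, with a detection p-value of 0.0052. All 3 carboxylate carriers lay above 0, 1 of them (SLC5A12) detected in suspension alone and so chosen through the state where it was high. They ran from SLC16A7 (0.17) to SLC5A8 (0.37), both carriers of lactate and other monocarboxylates. Other SLC16 members were placed in other classes, among them SLC16A5 (-0.30, with a second probe at 0.10). The SLC16 family had 2 of 5 members above 0 and a median of -0.125. The class of nucleoside and nucleotide sugar carriers had 8 of 10 above 0 and a median of 0.09, with the Golgi carriers SLC35A1 for CMP-sialic acid (0.26) and SLC35A3 for UDP-N-acetylglucosamine (-0.14) at the ends. The 8 include SLC33A1 (0.17), a carrier of acetyl-coenzyme A, and its relative SLC33A2 (0.08), which were also placed in this class. Among the 8, SLC29A4 (0.06, a bound) was also detected in suspension alone and so chosen through it. For SLC35A2, also among the 8, the probe used differed by 0.10 and another by -0.55.

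Vitamin and cofactor carriers had 5 of 8 above 0 and a median of 0.08. The thiamine carrier SLC19A3 was highest (0.37), and the carnitine carrier SLC22A5 lowest, at 6.93 in reattached, 6.81 in suspended and 7.22 in adherent cells (-0.41). The 4 fatty acid carriers of the SLC27 family were split, from SLC27A3 (0.28) to SLC27A5, which couples bile acids to coenzyme A (-0.35). Among 21 carriers of other or unassigned substrates, 12 lay above 0 and 9 below. SLC22A23, an orphan of the organic ion family, was detected in suspension alone, at 4.97 in reattached, 5.77 in suspended and 5.04 in adherent cells, at least 1.56-fold higher in suspended than in adherent cells. At the other end stood SLC10A3, an orphan of the bile acid family, at 8.08, 8.12 and 8.61 (-0.49), and SLC46A3, a lysosomal carrier, at 5.90, 5.86 and 6.28 (-0.42).

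**Figure D3:**
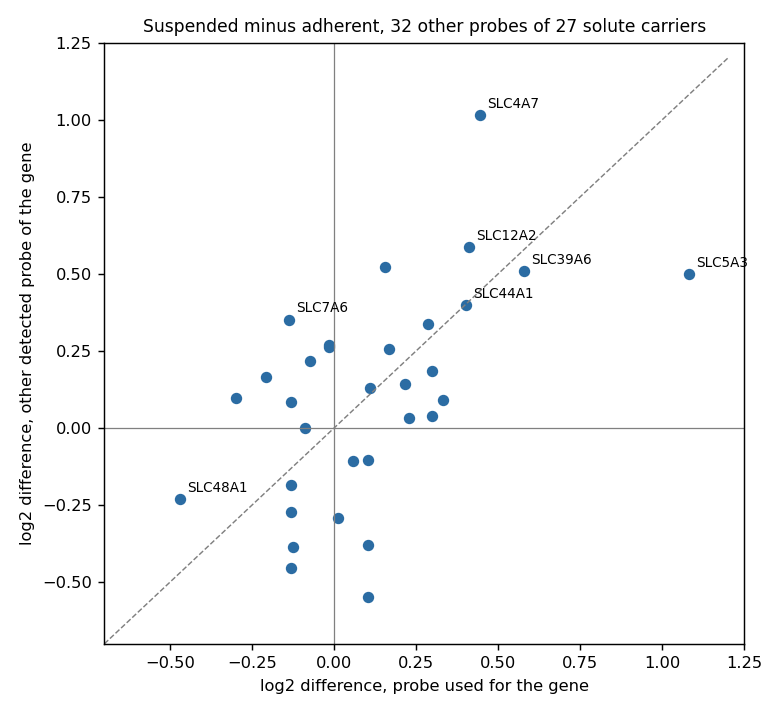
Log2 difference of suspended minus adherent cells for the other detected probes of a carrier (y axis) against the probe used for it (x axis), 32 probes of 27 carriers, all detected on both arrays, 1 array each. The dashed line marks equal values. SLC4A7, SLC12A2, SLC39A6, SLC44A1 and SLC5A3 lie between 0.40 and 1.08 on both axes, while SLC7A6 has 1 probe on each side of 0.

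Where a carrier had more than 1 detected probe, the probes often differed by as much as the states. Where both probes were detected on both arrays compared, 20 of 32 other probes had the sign of the probe used between suspended and adherent cells, 16 of 32 between reattached and suspended cells and 20 of 31 between reattached and adherent cells. For differences of this size, a single probe of a single array does not settle the direction. SLC16A7 is another case, where the probe used differed by -0.28 between reattached and suspended cells and the other by 0.12.

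Reattached cells, set against suspended ones, show carrier levels in cells given 1 day to attach. The carriers lay slightly lower: the median log2 difference was -0.06 over 125 carriers, with 48 above 0 and 76 below, against a median of 0.01 over all 10715 named genes compared. With no floor, 44 lay above 0 and 80 below, since SLC27A6, SLC29A4, SLC2A10 and SLC43A1, not detected after reattachment, lay above 0 only through the floor of the reattached array. Over the 114 detected on all 3 arrays the median was also -0.06, with 41 above 0. At 1.5-fold or more 0 were higher (against 0.821% of all genes) and 2 lower (1.6%, against 1.09%), a share close to that of all genes. At 2-fold 0 were higher (against 0.205%) and 0 lower (against 0.112%). With the authors' deposited intensities, no background correction, a larger offset or the mean over probes, 0 were lower at 1.5-fold. The shares of all genes were then 0.49%, 0.53%, 0.53% and 1.02%. This comparison shares the suspended array with the previous one, so a single high or low value there moves both in opposite directions.

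SLC39A7 was 1.64-fold lower in reattached than in suspended cells and SLC12A2 1.51-fold lower, the 2 carriers past the threshold. The second SLC12A2 probe differed by -0.14, and the second SLC39A7 probe was detected on neither array. Among carriers detected on both arrays, SLC5A3 (-0.54), SLC22A4, a carrier of ergothioneine (-0.49), SLC24A3 (-0.44) and SLC50A1, a Golgi sugar carrier (-0.42) came next. The reattached level of SLC24A3 was near the detection limit, with a detection p-value of 0.0065. SLC2A13 and SLC22A23, not detected after reattachment, were lower by at least 0.49 and 0.48 on the log2 scale. SLC22A4 stood at 7.83 in reattached, 8.32 in suspended and 8.04 in adherent cells. Every one of the 6 detected on both arrays had its highest level in suspension.

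On the higher side of reattached against suspended cells were SLC16A5, a monocarboxylate family member (0.39, with a second probe at -0.19), SLC2A6 (0.36), SLC4A3, a chloride-bicarbonate exchanger (0.35), SLC12A4, a potassium-chloride cotransporter (0.26), SLC48A1 (0.24, with a second probe at -0.12) and SLC38A7, a lysosomal glutamine carrier (0.23). SLC38A7 stood at 5.61 in reattached, 5.38 in suspended and 4.97 in adherent cells and SLC4A3 at 5.58, 5.23 and 4.73, neither being detected in adherent cells. All 6 differences were under 1.5-fold.

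Class medians in this comparison lay between -0.19 and 0.03. The phosphate and sulfate carriers had a median of -0.19, with all 4 below 0, the sugar and polyol carriers -0.06 (-0.239 with no floor and -0.162 with a detection p-value under 0.05), the calcium and magnesium carriers -0.10, the pH and volume carriers and the metal carriers -0.08 each, and the amino acid carriers -0.02. Of the 11 SLC39 zinc importers, 8 lay below 0 with a median of -0.17, and of the 7 SLC38 carriers 6, with a median of -0.19. Among the 8 is SLC39A13, detected in suspension alone, whose value (-0.08) is a bound.

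Reattached cells, set against adherent cells that had not been in suspension, show how far carrier levels stood from those of the starting culture. The median difference was 0.02 over 119 carriers, 63 above 0 and 56 below, against 0.02 over all 10821 named genes. At 1.5-fold 1 carrier was higher (0.84%, against 0.887% of all genes) and 0 lower (against 1.1%). At 2-fold 0 were higher (against 0.037%) and 0 lower (against 0.102%). With the authors' deposited intensities, no background correction or a larger offset, 0 were higher at 1.5-fold. The shares of all genes were then 0.20%, 0.28% and 0.29%. SLC9A5 was that carrier, 1.73-fold higher in reattached than in adherent cells, and among the sodium-proton exchangers it alone stood higher in reattached than in suspended cells.

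Next above adherence in reattached cells, among carriers detected on both arrays, were SLC2A14 (0.55), SLC5A3 (0.54, with a second probe not detected after reattachment), SLC19A3 (0.47), SLC30A6, a zinc carrier of the Golgi (0.47), and SLC5A8 (0.46). SLC38A7 and SLC4A3, not detected in adherent cells, were higher by at least 0.48 and 0.45. SLC30A6 stood at 6.92 in reattached, 6.86 in suspended and 6.45 in adherent cells, and SLC5A8 at 6.42, 6.32 and 5.96. Lowest were SLC12A8 (-0.57), SLC10A3 (-0.53), SLC1A3 (-0.49), SLC27A5 (-0.40), SLC46A3 (-0.38) and the thiamine carrier SLC19A2 (-0.37). For SLC12A8, SLC10A3, SLC1A3, SLC27A5 and SLC19A2 the reattached level lay below the suspended one by at most 0.18, so that they were as far from the adherent level after attachment as in suspension or farther, while SLC46A3 lay 0.04 above it. The 2 thiamine carriers differed in sign, SLC19A3 at 6.38 in reattached, 6.28 in suspended and 5.90 in adherent cells, and SLC19A2 at 5.92, 6.10 and 6.29.

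**Figure D4:**
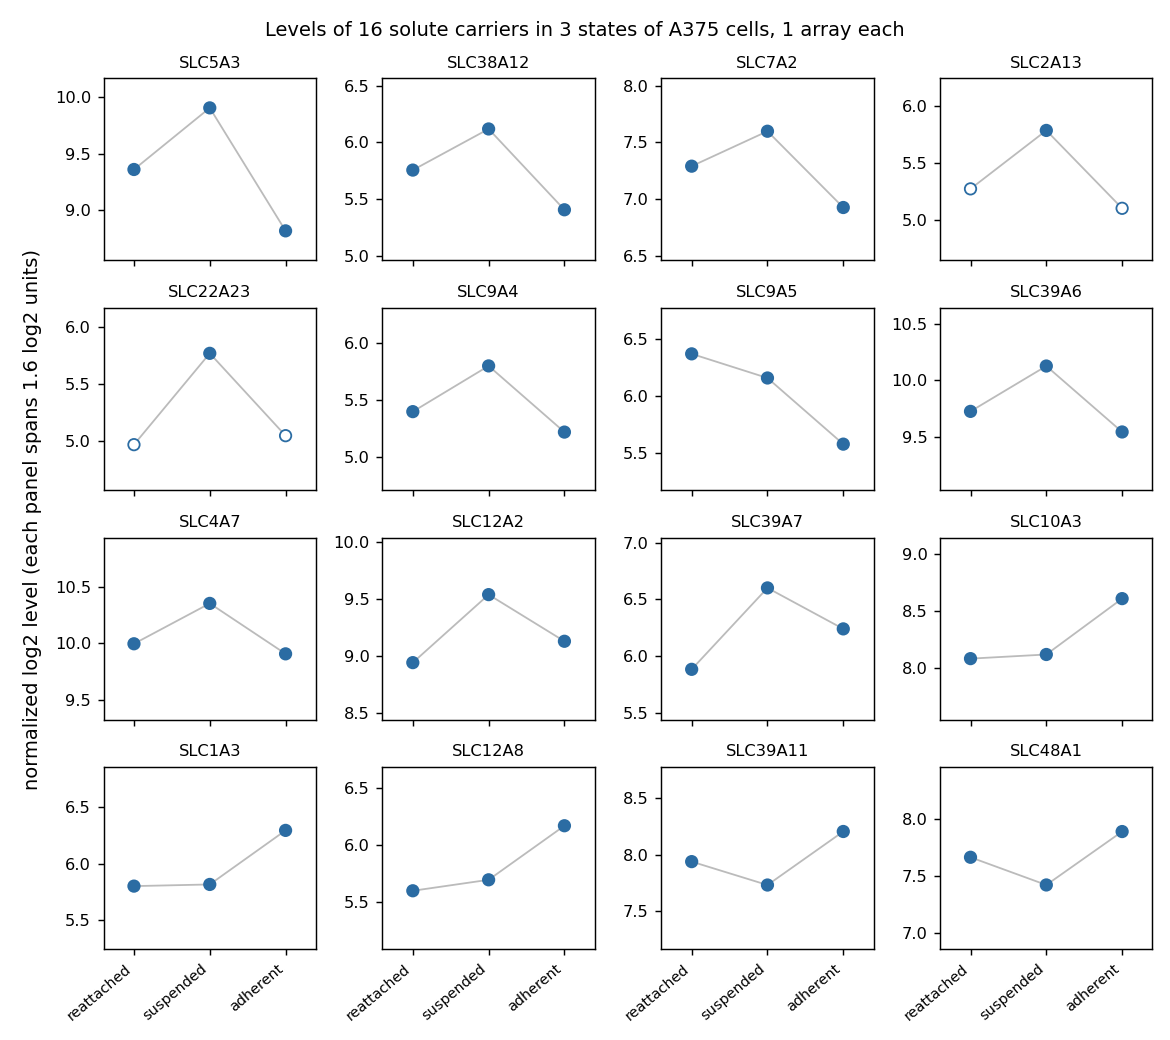
Normalized log2 level of 16 solute carriers in reattached, suspended and adherent cells, 1 array each, every panel spanning the same range. Open points were not detected. SLC5A3, SLC39A6, SLC4A7 and SLC12A2 are highest in suspension, SLC9A5 is highest after reattachment, and SLC10A3, SLC1A3, SLC12A8, SLC39A11 and SLC48A1 are highest in adherent cells.

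Of the 7 carriers left out by name, 5 were detected, and 4 of them lay below 0 between suspended and adherent cells, with a median of -0.51. SLC2A1, the main glucose importer, stood at 10.71 in reattached, 10.32 in suspended and 10.87 in adherent cells, and SLC7A5 and its partner chain SLC3A2, which exchange large neutral amino acids, differed by -0.53 and -0.51 between suspended and adherent cells. SLC7A11 differed by -0.16 and SLC2A3 by 0.13. The 29 genes of the SLC35B to SLC35F and SLCO groups, whose symbols fall outside the rule, had 19 detected members, 1 of them the antisense gene SLCO4A1-AS1, with a median of -0.05, 9 above 0 and 10 below. Adding the carriers of both kinds, without the antisense gene, gave a median of 0.08 over 147 carriers. SLCO4A1-AS1 itself, at -0.80, was the only one of the 29 past 1.5-fold, and it encodes no carrier.

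Of 25 partners and regulators of carriers, 21 were detected, 11 above 0 and 10 below between suspended and adherent cells, with a median of 0.05, 1 of them at 1.5-fold. That was SGK1, a kinase that raises the activity of several ion carriers, at 11.20 in reattached, 11.68 in suspended and 11.06 in adherent cells (0.62). ATP6AP1, an accessory subunit of the proton pump that acidifies vesicles, was next, at 11.19, 11.52 and 11.10 (0.42). Both were highest in suspension.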

How the data were processed

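RNA from 3 states of A375 cells was hybridised to Illumina arrays, 1 array each. The deposited files hold each probe's intensity on a linear scale, not normalized, and its detection p-value, per the file headers. The authors' deposited series table held intensities in the same order as the scanner values on every array, with a median of 58.1 on each, and served as an alternative. Its scale is linear and its centring is not stated.

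From the intensities, normalized log2 levels were computed with limma 3.58.1 in R 4.3.3 (neqc): background correction from the deposited detection p-values, an offset of 16, quantile normalization and log2. The offset makes differences of dim genes smaller. Detected means a detection p-value under 0.01. Each gene takes the value of 1 probe, the brightest on average among its detected ones, and is compared if detected on either array. Of the probes, 30113 had 1 platform gene symbol, 8 had several and 17202 none. A probe that is not listed is unnamed here.

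Substrate classes were assigned by family and gene. The members and lists were chosen with earlier results of these data known. The text names the 10 highest and 10 lowest carriers detected on both arrays for suspended against adherent cells, the 6 highest and 6 lowest for the other comparisons, carriers past 1.5-fold detected on 1 array, the ends of each class, the carriers next to the detection threshold, those left out by name and the 2 partners farthest from 0. SLC7A1, SLC7A6, SLC9A8, SLC38A1, SLC38A2 and the iron and copper carriers were named after their values were seen. SLC2A10, SLC27A6, SLC33A1, SLC33A2, SLC35A2, SLC38A10 and SLC39A13 were also named after that. Other probes of a gene are given a difference only where detected on both arrays compared. The computation was tested on simulated data. Array number limits the precision, and no test was possible. Alternatives were other background, offset, filter, floor and probe rules, and other member sets.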

Additional observations from a re-analysis of the deposited data

How the results depend on the processing

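The median difference of the carriers ranged from 0.03 to 0.11 between suspended and adherent cells, from -0.07 to -0.03 between reattached and suspended cells and from 0.01 to 0.03 between reattached and adherent cells over all alternatives. Counts at 1.5-fold depended on the scale. Carriers higher in suspended than in adherent cells numbered 1 with the authors' deposited table, with no background correction and with an offset of 50, and 3 when detection on all 3 arrays was required, against 5. Of all genes, 1.36%, 1.42%, 1.44% and 2.61% were higher in these settings, against 2.71%. Carriers lower in reattached than in suspended cells numbered 0 under those 3 scales and with the mean over probes, against 2. They numbered 4 with no detection filter and with no floor. In the same order of settings, 0.49%, 0.53%, 0.53%, 1.02%, 1.04% and 1.73% of all genes were lower, against 1.09%. Carriers higher numbered 1 with a detection p-value under 0.05, no filter or no floor, against 0. The shares of all genes higher were then 0.92%, 0.85% and 1.24%, against 0.82%. Carriers higher in reattached than in adherent cells numbered 0 under the same 3 scales, 3 with a p-value under 0.05 or no floor and 4 with no filter, against 1. Of all genes, 0.20%, 0.28% and 0.29% were higher under these scales. With a p-value under 0.05, no floor and no filter the shares were 1.06%, 1.48% and 1.03%, against 0.89%. The cause was not tested. The median of the choline and organic ion carriers between suspended and adherent cells was -0.0097 with no detection filter, against 0.28. Medians of the sugar, ion and nucleoside classes, and of the choline class between reattached and adherent cells, also moved by over 0.1 with the filter or the floor. For named carriers, 1045 values moved by less than 0.1, 152 moved by more, and 7 of the 1197 changed sign, 0 of them past 1.5-fold and none over 0.23 on the log2 scale. Requiring detection on all 3 arrays and the wider carrier sets were chosen after seeing the data. From the wider set the antisense gene SLCO4A1-AS1 was dropped after its value was seen, since it encodes no carrier; with it, 1 of the added genes was lower in suspended than in adherent cells, and without it 0. No paired analysis was possible because each state has 1 array. Signal close to background limits carriers such as SLC2A13 and SLC22A23, whose folds are bounds, and the adherent levels of SLC9A4, SLC9A5 and SLC38A12. The same holds for the adherent and reattached levels of SLC24A3.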
